A study of Mus musculus with 9 samples.

Results

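The genes described here encode the aminoacyl-tRNA synthetases, and 35 were listed. Only probe sets annotated to the symbol of 1 such gene were used, and where a gene had several, the one with the highest average log2 signal over the arrays represented it. Such a probe set was present for 34 of the 35 genes, of 18193 genes named in this way on the array. Mars was annotated as Mars1, and Dars is not analysed here. The intensities of Mars2 lay below the 40th percentile of the array in all 9 arrays, between 5.97 and 10.1, so Mars2 was not tested. The remaining 33 genes, 19 cytosolic and 14 mitochondrial, were among the 12652 genes tested. Genes were assigned to the mitochondrial set by a symbol ending in 2.

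Aminoacyl-tRNA synthetases join each amino acid to its matching tRNA and so supply the charged tRNAs that ribosomes read from. Most amino acids have separate nuclear genes for the cytosolic and the mitochondrial enzyme, while Gars and Kars serve both compartments from a single gene. In the cytosol several of the enzymes sit together on scaffold proteins in the multisynthetase complex, and many cytosolic synthetase genes are targets of ATF4, the transcription factor that is translated when eIF2 alpha is phosphorylated under amino acid shortage or stress. Blood stem cells are known for a low rate of protein synthesis.

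RNA came from flow-sorted CD45.1+ LKS+ bone marrow cells of C57BL/6 mice aged 8 weeks, hybridised to 9 Affymetrix Mouse Genome 430 2.0 arrays. LKS+ cells lack lineage markers, carry Kit and Sca-1, and hold blood stem cells and early progenitors. There were 3 groups of 3 arrays: control mice, leukemic mice at day 7 and leukemic mice at day 14, and by the title of the series the sorted cells are the normal stem and progenitor cells of mice with acute myeloid leukemia. All groups share strain, age and sorting gate. The way the leukemia was established is not given in the sources used here, the controls carry no day of their own, and the labels call the replicates biological without saying whether each was 1 animal or a pool, so p-values measure the spread between these samples. Both leukemic days were compared with the same 3 control arrays. The arrays measure bulk RNA, in which fewer cells of a type and less RNA per cell cannot be told apart.

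The transcripts of stem and progenitor markers were present in all groups. Of 11 such markers tested, 8 did not pass the test at day 14 against control, among them Kit, Cd34, Flt3, Mecom and Hlf, while Cd48 and Procr were lower and Gata2 was higher. Ly6a, which encodes Sca-1, is not analysed here. The summed intensity of the 11 markers was 14012 to 14470 in the control arrays and 13426 to 14490 at day 14. Markers of other cell types also moved at day 14: 5 of 7 megakaryocyte, 6 of 7 monocyte and 5 of 7 B cell markers tested were higher and 1 B cell marker, Cd79b, was lower (-0.58), where 18.3% of all genes were called higher and 34.1% lower. Sums at day 14 were 1605 to 1885 against 610 to 696 in control for 8 megakaryocyte genes, 3147 to 4609 against 1874 to 2848 for 7 monocyte genes and 406 to 494 against 274 to 278 for 8 B cell genes. The erythroid sum over 7 genes reached 1020 in 1 control array and was 167 to 253 at day 14, with 3 of the 7 genes below the 40th percentile in all arrays. With control replicate 2 or day 14 replicate 2 left out, the monocyte count was 3, and it was 4 with day 14 replicate 3 left out. Sums at day 14 against control were 8198 to 10337 against 6214 to 7570 for 11 neutrophil genes, 595 to 698 against 754 to 877 for 7 T and NK cell genes and 1194 to 1429 against 467 to 651 for 5 mast cell and basophil genes. Mpo, Prtn3 and Ctsg make up most of the neutrophil sum. Of 9 neutrophil genes tested 3 were higher and 2, S100a8 (-0.99) and S100a9 (-0.75), were lower, with 2 to 5 higher and 0 to 3 lower over the alternatives. Of 4 T and NK cell genes tested 2 were higher and 1 lower, with a median of 0.29, and 0 to 3 were higher over the alternatives. Of 4 mast cell and basophil genes tested 2 were higher and 0 lower. The part of these other cells in the synthetase values was not tested.

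Promoter sequences of RefSeq (GRCm38.p6, 250 bases before to 50 bases after the start of the gene) were matched for 27 of the 35 genes. They were searched on both strands for TGATGNAA, the core of the composite element bound by ATF4 with a C/EBP partner, for CACGTG, the E-box bound by MYC with MAX, and for TGACGTCA, the cAMP response element. The first motif was found in 5 of the 27 promoters, those of Aars, Gars, Iars, Tars and Yars, against 3.97% of 32851 promoters of this length. These 5 were among 8 matched genes of a list of synthetases often given as ATF4 targets, and 0 of 14 matched mitochondrial genes held the motif. The E-box was found in the promoters of Aars, Iars, Farsb, Tars and Ears2, against 7.15% of promoters, and TGACGTCA in 0 of the 27 against 1.79%. A match is a run of letters and not a measured binding site. The 150 bases before the start are shown for 5 genes that hold a match there, so that its position can be compared between genes that fell at day 14, and for Mars, the cytosolic gene with the most negative change at day 14, which holds none of these motifs in its window. Capitals mark the matches, and the sequences run 5′ to 3′ on the strand of the gene, from base -150 to base -1. They lie at chr8:111033692-111033841 (plus strand) for Aars, chr6:55037851-55038000 (plus strand) for Gars, chr15:11399659-11399808 (minus strand) for Tars, chr13:49681980-49682129 (plus strand) for Iars, chr1:78488898-78489047 (minus strand) for Farsb and chr10:127311787-127311936 (minus strand) for Mars.
Aars: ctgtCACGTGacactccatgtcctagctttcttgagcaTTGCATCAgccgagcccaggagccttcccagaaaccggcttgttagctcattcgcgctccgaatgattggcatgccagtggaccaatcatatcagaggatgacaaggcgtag
Gars: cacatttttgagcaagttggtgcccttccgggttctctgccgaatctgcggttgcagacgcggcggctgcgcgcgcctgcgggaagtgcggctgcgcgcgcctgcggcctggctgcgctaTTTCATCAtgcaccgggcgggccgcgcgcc
Tars: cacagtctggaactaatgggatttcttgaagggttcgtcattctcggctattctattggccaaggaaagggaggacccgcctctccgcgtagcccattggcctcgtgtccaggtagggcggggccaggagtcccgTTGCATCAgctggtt
Iars: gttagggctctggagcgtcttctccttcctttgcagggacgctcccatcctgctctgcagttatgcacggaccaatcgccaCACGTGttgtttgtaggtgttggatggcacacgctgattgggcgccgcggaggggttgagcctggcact
Farsb: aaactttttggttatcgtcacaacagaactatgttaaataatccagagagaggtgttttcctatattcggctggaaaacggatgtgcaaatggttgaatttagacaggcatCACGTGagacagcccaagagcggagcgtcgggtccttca
Mars: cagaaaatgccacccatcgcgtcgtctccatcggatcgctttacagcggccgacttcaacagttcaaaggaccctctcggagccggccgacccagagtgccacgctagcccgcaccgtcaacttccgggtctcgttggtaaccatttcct
The reverse complement of TGATGNAA began at base -112 in Aars, at base -30 in Gars and at base -15 in Tars. In Iars and Yars the match lay after the start, outside the bases shown, as did a second match in Aars. The E-box began at base -146 in Aars, -69 in Iars and -39 in Farsb, and in Tars and Ears2 it lay after the start.

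At day 7 the synthetase transcripts stayed close to control. Log2 changes ran from -0.11 for Lars to 0.24 for Yars2, with a median of 0.01, which is also the median of all genes tested. No gene of the 33 was called by limma at an adjusted p below 0.05 (0 of 33), in a comparison that called 3.34% of all genes in either direction (423 of 12652). At an unadjusted p below 0.05 there was 1, Yars2, the mitochondrial tyrosyl enzyme, with an intensity of 165, 188 and 153 in the control arrays and 187, 208 and 203 at day 7 (log2 change 0.24 ± 0.10 SE, adjusted p = 0.21). The groups overlapped for Yars2 by a narrow margin. The day 7 arrays lay apart from the control arrays for 1 of the 33 genes, Fars2, with 245, 246 and 257 against 244, 219 and 230, whereas 26.5% of all genes were apart in either direction. Genes of mitosis stood otherwise in the same arrays. All 14 tested genes of a mitosis list were higher at day 7, with a median log2 change of 0.99, and Ube2c, the E2 enzyme of the anaphase-promoting complex, measured 322, 473 and 378 in control and 1040, 962 and 870 at day 7. The number of mitosis genes called fell to 8, 5, 7 and 6 without control replicate 1, control replicate 3, day 7 replicate 1 and day 7 replicate 2, and to 1 with no filter on dim probe sets.

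At day 14 the synthetase transcripts were lower. Against control, 25 of the 33 genes fell, 0 rose and 8 did not pass the test, and the median change was -0.38 on the log2 scale, an intensity 23.0% below control. Of all genes tested, 34.1% were called lower and 18.3% higher in this comparison, with a median of -0.06. The change of all 33 genes was negative on the deposited scale, of 30 after quantile normalization and of 29 with every array set to the same 75th percentile. The 3 day 14 arrays lay below all control arrays for 27 of the 33 genes, against 37.3% of all genes. The scaling bears on these shares, since the 75th percentile of the intensities was 114.6 to 119.2 in the day 14 arrays and 126.8 to 130.2 in the other arrays. Of all genes called at day 14, 34.9% were higher on the deposited scale, 45.1% after quantile normalization and 57.4% with equal 75th percentiles, which shifted the median of all genes by 0.12. The median of the synthetases lay 0.32, 0.29 and 0.32 below the median of all genes under these 3 scalings, and 25, 23 and 24 of the genes were called lower. The gap depended more on which genes and probe sets entered. The synthetase median minus that of all genes was -0.25 when more dim genes were excluded. There 26 of 33 were lower, against 42.4% of all genes. It was -0.21 when the probe sets of a gene were averaged and -0.37 when no gene was excluded. Leaving out single arrays gave -0.34 to -0.29.

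**Figure D1:**
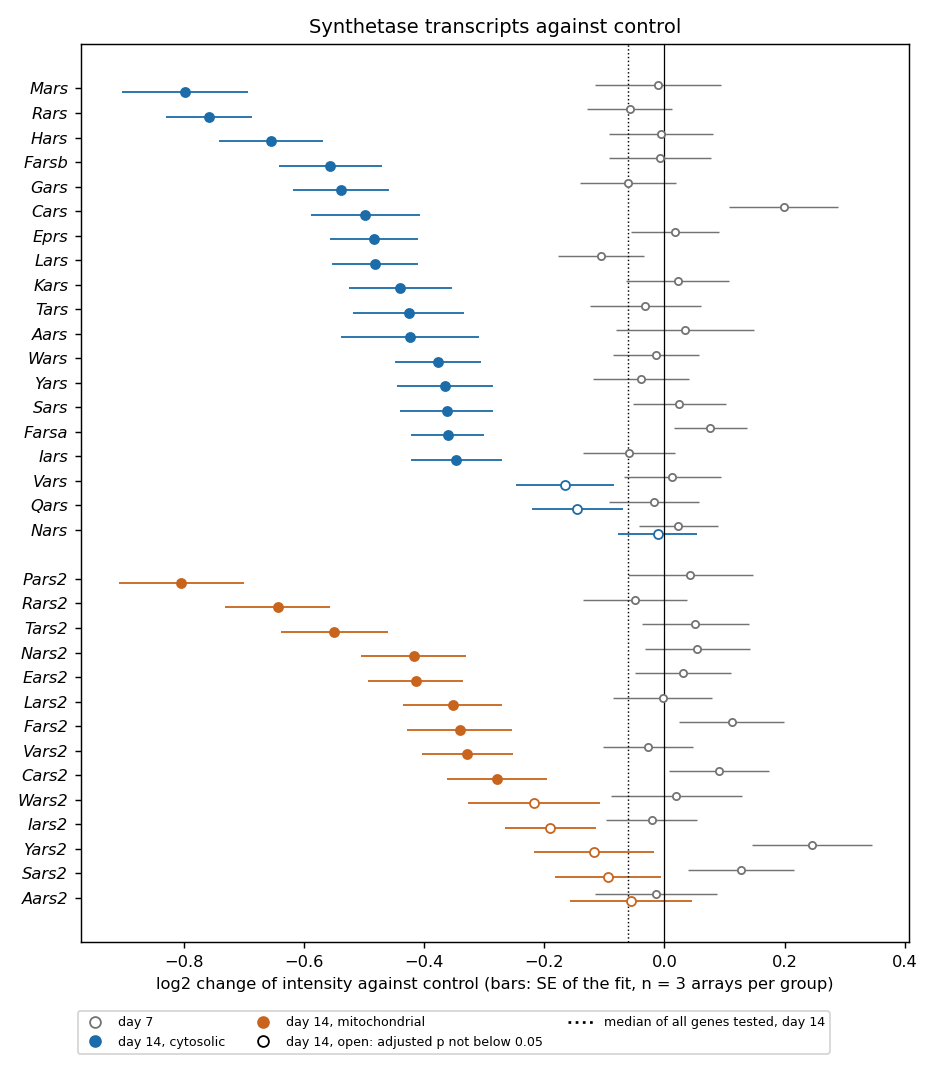
Log2 change of intensity against control for the 33 tested synthetase genes, with bars for the SE of the fit (n = 3 arrays per group). Grey open points are day 7, blue and orange points are day 14 for cytosolic and mitochondrial enzymes, open day 14 points did not pass the adjusted p of 0.05, and the dotted line is the day 14 median of all genes (-0.06). Day 7 points lie around 0 and all day 14 points below it on the deposited scale (30 of 33 after quantile normalization, 29 of 33 with equal 75th percentiles).

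Of the 19 cytosolic genes 16 fell at day 14, with a median log2 change of -0.43, where 34.1% of all genes were called lower. The most negative was Mars, the methionyl enzyme, which charges both initiator and elongator tRNA. Its intensity was 431, 525 and 427 in the control arrays, 493, 471 and 406 at day 7 and 243, 286 and 264 at day 14. The day 14 arrays lay far below the other 6, and the change was -0.80 ± 0.10 (SE; adjusted p = 0.00019), an intensity 42.5% lower. Rars, the arginyl enzyme, measured 480, 530 and 486 in control, 489, 465 and 481 at day 7 and 272, 299 and 314 at day 14. Every day 14 array of Rars was again below all others, with the smallest adjusted p of the set (3.0e-05) and a change of -0.76 ± 0.07. Mars and Rars are both enzymes of the multisynthetase complex.

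The other complex enzymes had less negative changes, a difference that was not tested, and Qars did not pass. Lars, which charges leucine and takes part in leucine sensing, measured 634, 693 and 656 in control and 488, 458 and 474 at day 14 (change -0.48 ± 0.07, adjusted p = 0.00039). Eprs, a fused enzyme for glutamate and proline, measured 715, 768 and 667 in control and 488, 519 and 528 at day 14 (change -0.48 ± 0.07, adjusted p = 0.00043). For both genes the day 14 arrays formed a separate lower group in the probe set used. The other tested probe sets of Eprs gave -0.02, 0.14 and 0.90. None of these was called lower, and the last was called higher. Kars, the lysyl enzyme, changed by -0.44 and Iars, the isoleucyl enzyme, by -0.35. Qars, the glutaminyl enzyme, measured 639, 581 and 713 in control and 580, 589 and 573 at day 14, with overlapping groups (change -0.14 ± 0.08, adjusted p = 0.13). Without control replicate 2 the change of Qars passed the test (-0.22, adjusted p = 0.030). Its other tested probe sets gave 0.14 (adjusted p = 0.12) and 0.07 (adjusted p = 0.48) at day 14 against control. The first of these was called higher at day 14 against day 7 (0.21, adjusted p = 0.029). In all, 6 of 7 complex enzymes fell, with a median of -0.48, against 34.1% of all genes called lower.

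Among the 12 cytosolic genes outside the complex 10 fell, with a median of -0.40, against 34.1% of all genes called lower. Hars, the histidyl enzyme, measured 837, 910 and 813 in control, 855, 880 and 813 at day 7 and 476, 578 and 578 at day 14 (change against control -0.65 ± 0.09, adjusted p = 0.0002). Gars, the glycyl enzyme for cytosol and mitochondria, measured 671, 747 and 634 in control and 445, 482 and 483 at day 14 (change -0.54 ± 0.08, adjusted p = 0.00039). Both sets of day 14 arrays were clear of the control and day 7 arrays. The phenylalanyl enzyme is built of 2 subunits from separate genes: its beta subunit gene Farsb changed by -0.56 ± 0.09 and its alpha subunit gene Farsa by -0.36 ± 0.06, and both passed the test. The other probe sets of Farsa gave -0.0042, 0.08 and 0.22. None of these was called lower, and the last was called higher. Cars, the cysteinyl enzyme and a dimmer probe set, measured 54.8, 59.5 and 57.5 in control, 69.3, 59.3 and 69.0 at day 7 and 38.1, 45.7 and 38.3 at day 14. The day 7 values of Cars overlapped control, and its day 14 values lay below both (change against control -0.50 ± 0.09, adjusted p = 0.0013). Tars, Aars, Wars, Yars and Sars, the threonyl, alanyl, tryptophanyl, tyrosyl and seryl enzymes, fell by between 0.36 and 0.43 on the log2 scale.

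Nars, the asparaginyl enzyme, had the smallest change of the set at day 14. It measured 1146, 1218 and 1155 in control, 1260, 1199 and 1119 at day 7 and 1116, 1168 and 1208 at day 14. The 3 groups overlapped, with a change of -0.01 ± 0.07 at day 14 (adjusted p = 0.90), and a second probe set of Nars gave -0.10 (adjusted p = 0.30). Vars, the valyl enzyme, measured 530, 531 and 540 in control and 443, 469 and 518 at day 14. These groups did not overlap, but the change of -0.17 ± 0.08 did not pass the test (adjusted p = 0.11), and it passed without day 14 replicate 3 (-0.23, adjusted p = 0.047).

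**Figure D2:**
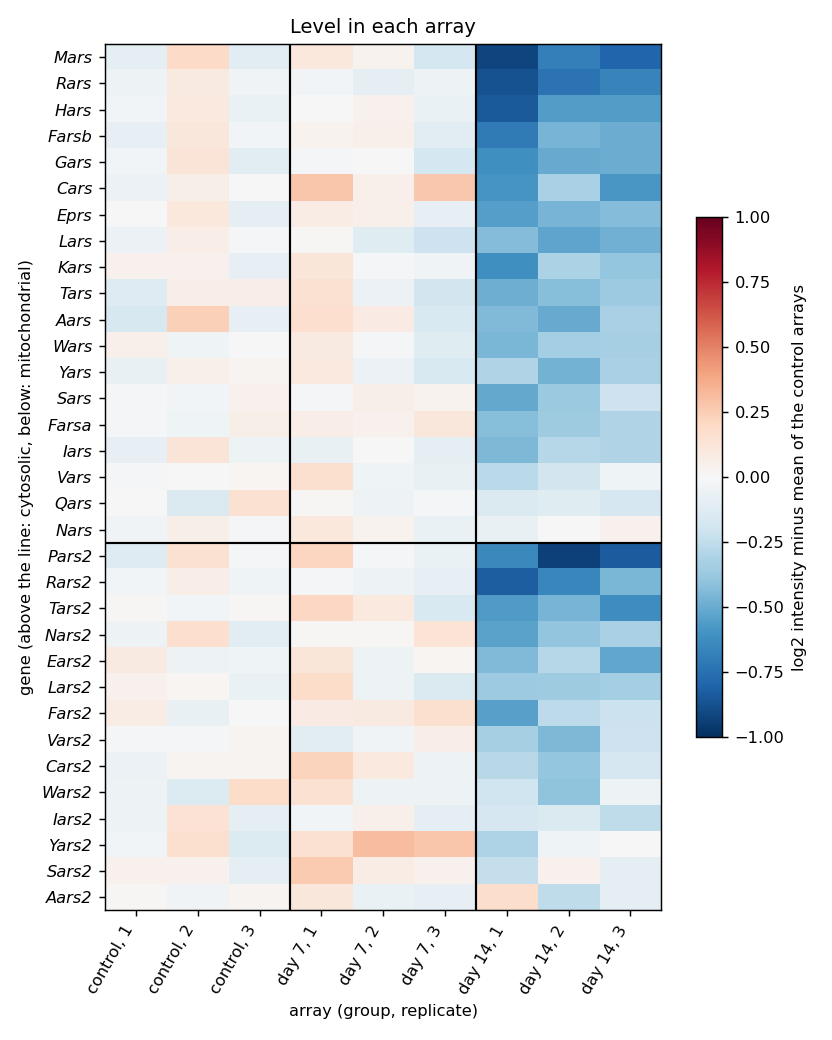
Log2 intensity of each tested synthetase gene in each of the 9 arrays, minus the mean of the 3 control arrays of that gene, with blue for lower and red for higher values. Rows are genes, cytosolic above the black line and mitochondrial below it, each sorted by the day 14 change, and columns are arrays. Of the 33 genes, 32 lie below their control mean in each day 14 array, counted per array on the deposited scale. Of all 12652 genes tested, 7091 to 7522 do so per day 14 array. The Nars row stays pale throughout.

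Of the 14 mitochondrial genes 9 fell at day 14, where 34.1% of all genes were called lower. The median of the 14 was -0.33, and it was -0.22 after quantile normalization, -0.21 with equal 75th percentiles and -0.17 with the mean of probe sets. These enzymes are made in the cytosol and imported to charge the tRNAs of mitochondrial translation. Pars2, the mitochondrial prolyl enzyme, had the most negative change of all synthetase genes. Its intensity was 74.5, 90.4 and 80.5 in control, 94.4, 80.7 and 77.7 at day 7 and 52.1, 42.8 and 45.7 at day 14. The day 14 arrays were well apart, and the change was -0.80 ± 0.10 (adjusted p = 0.00018). Rars2, the mitochondrial arginyl enzyme, measured 376, 401 and 371 in control and 217, 243 and 279 at day 14 (change -0.64 ± 0.09, adjusted p = 0.00023). Tars2, the threonyl enzyme, measured 190, 184 and 190 in control and 127, 136 and 122 at day 14 (change -0.55 ± 0.09, adjusted p = 0.00062). For both genes all day 14 arrays were lower than all others. Nars2, Ears2, Lars2, Fars2, Vars2 and Cars2, for asparagine, glutamate, leucine, phenylalanine, valine and cysteine, fell by between 0.28 and 0.42 on the log2 scale. The call of Cars2 was lost without day 14 replicate 2 (-0.23) and under both other scalings (-0.15 and -0.16), and that of Vars2 after quantile normalization (-0.20).

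The 5 mitochondrial genes that did not pass were Wars2, Iars2, Yars2, Sars2 and Aars2. Iars2 measured 125, 143 and 122 in control and 116, 117 and 109 at day 14, which did not overlap (change -0.19 ± 0.08, adjusted p = 0.059), and it passed without control replicate 3 (-0.24). Aars2, the alanyl enzyme, measured 92.4, 89.3 and 93.5 in control and 103, 77.1 and 86.1 at day 14 (change -0.06 ± 0.10, adjusted p = 0.67). The day 14 arrays of Aars2 lay on both sides of control. Sars2 and Wars2 each held 1 identical intensity in 4 of the 9 arrays, 52.0 for Sars2 and 45.4 for Wars2. Values identical in at least 2 arrays occurred in 5 of the 33 genes (15.2%), the others being Hars, Ears2 and Iars2 with 2 arrays each, and in 51.64% of all probe sets. The latter share includes probe sets too dim to test, so the 2 shares are not of like sets. The source of the identical values was not tested.

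Of the listed genes, cytosolic and mitochondrial enzymes of the same amino acid could be set beside each other in 15 pairs. Eprs was paired with Ears2 and with Pars2, and both Fars subunits with Fars2. Hars2 was tested but lies outside the list, so it was not paired with Hars. The change at day 14 was more negative for the cytosolic gene in 11 of the 15. Within arrays, the difference in log2 intensity between the partners lay apart between control and day 14 in 7 pairs. The cytosolic gene changed more in Aars, Farsb, Iars, Rars and Sars and less in Nars and Vars. The extremes were Aars with Aars2, where the cytosolic change was more negative by 0.37 (a difference of -0.37), and Nars with Nars2, where it was less negative (a difference of 0.41). By an exact two-sided permutation test with 3 arrays against 3 the smallest p possible is 0.1, so no pair could have passed. The pairs are also not independent, since Eprs and Fars2 recur among them, and no share over other gene pairs was computed. These differences and counts are given as values only and do not show a difference between the compartments. The class medians per array were -0.49, -0.42 and -0.36 for the cytosolic and -0.34, -0.37 and -0.24 for the mitochondrial genes in the 3 day 14 arrays, all below the control mean. Over all genes tested 16.9% had a change at or below the cytosolic median and 23.5% at or below the mitochondrial median. By structural class, 12 of 17 class I enzymes fell (median -0.35) and 12 of 15 class II enzymes (median -0.42), against 34.1% of all genes. Eprs, which holds both folds, was left aside.

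**Figure D3:**
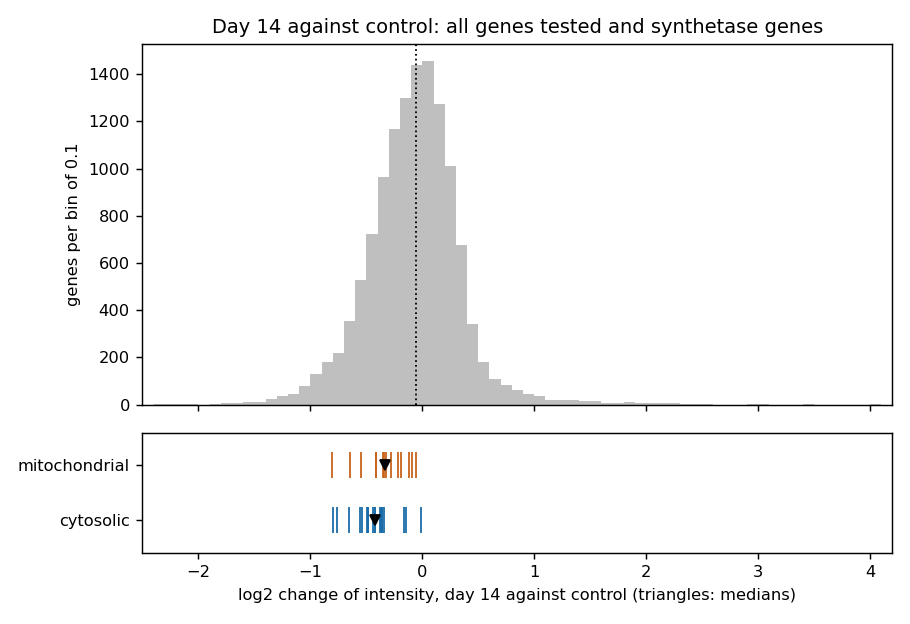
Histogram of the log2 change of intensity at day 14 against control for all 12652 genes tested, in bins of 0.1, with the dotted line at their median of -0.06, above ticks for each cytosolic (19) and mitochondrial (14) synthetase gene. Triangles mark the medians of the 2 sets at -0.43 and -0.33, both left of the peak of the histogram.

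Between the leukemic days the pattern was alike. Against day 7, 26 of 33 genes were lower at day 14 and 0 higher, with a median of -0.39, while 33.6% of all genes were called lower and 17.4% higher. The same scaling steps moved the share of higher calls among all called genes from 34.1% to 44.0% (quantile) and 57.8% (equal 75th percentiles) and shifted the median of all genes by up to 0.13. Of the cytosolic genes 16 of 19 were lower (median -0.44) and of the mitochondrial genes 10 of 14 (median -0.37). The added gene was Yars2, at 187, 208 and 203 on day 7 and 136, 163 and 168 on day 14 (change -0.36 ± 0.10, adjusted p = 0.012). Its days did not overlap, although its day 14 change from control did not pass the test. Cars also stood lower against day 7 (-0.70) than against control (-0.50). The genes that did not pass were Nars, Qars, Vars, Aars2, Iars2, Sars2 and Wars2.

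Several genes carry more than 1 probe set, and these did not always give the same answer. The 34 genes had 70 probe sets, of which 63 passed the filter. Beside the 33 that stood for a gene there were 30 others, of which 11 were lower, 2 higher and 17 not called at day 14 against control. Farsb and Wars (each by 3 of 4 probe sets), Aars, Hars, Iars, Sars, Tars2, Cars2 and Ears2 were called lower by more than 1 probe set. The other tested probe set of Ears2 gave -0.01 (adjusted p = 0.93). Eprs showed the widest spread. Its brightest probe set changed by -0.48, the next by -0.02 (adjusted p = 0.89), the third by 0.14 (adjusted p = 0.31) and the dimmest, at a control mean of 24.1, by 0.90 (adjusted p = 0.00019). Vars2 had a second probe set of similar brightness with a change of -0.02 (adjusted p = 0.86), and the 3 other probe sets of Farsa gave 0.00, 0.08 and 0.22, of which the last was called higher. When the mean of all probe sets stood for a gene, 21 of 33 were lower at day 14, the change of Eprs was 0.14, and the calls of Farsa (-0.02), Fars2 (-0.17) and Lars2 (-0.13) were lost. Which transcripts or exons these probe sets read was not tested.

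**Figure D4:**
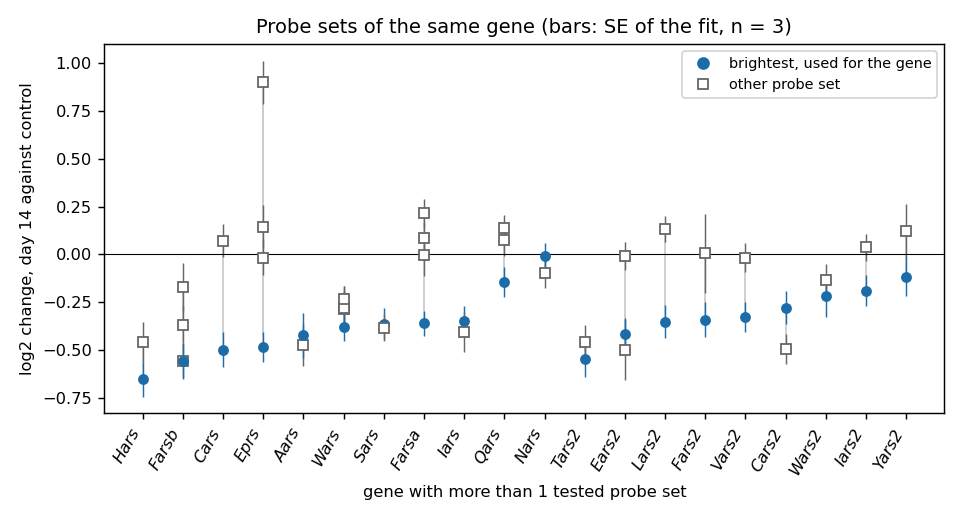
Log2 change at day 14 against control for every tested probe set of the 20 synthetase genes with more than 1, with bars for the SE of the fit (n = 3 arrays per group). Filled circles are the brightest probe set, used for the gene, and open squares are the others. Eprs spans -0.48 to 0.90, whereas the probe sets of Aars, Sars, Iars and Tars2 lie close together.

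ATF4 stands upstream of many cytosolic synthetase genes, and its own transcript rose while theirs fell. Atf4 measured 1928, 1891 and 1953 in control, 2386, 2489 and 2657 at day 7 and 3582, 3527 and 3714 at day 14. The 3 groups were fully apart, with changes of 0.38 (adjusted p = 0.013) at day 7 and 0.91 ± 0.06 (adjusted p = 6.4e-06) at day 14. The day 7 call was lost without day 7 replicate 2 or 3 (0.39 and 0.34) and with the mean of its probe sets (0.19). Ddit3, which encodes the stress factor CHOP and is a target of ATF4, measured 212, 150 and 168 in control, 294, 275 and 328 at day 7 and 557, 542 and 558 at day 14. It rose by 0.77 and 1.66 on the log2 scale, and the day 7 call was lost without control replicate 3, with no filter and with the mean of its probe sets. Atf3, another stress-induced factor, changed by 1.58 at day 14. Of the 12 tested synthetases often given as ATF4 targets, 11 fell at day 14 with a median of -0.42. Of the 7 other cytosolic genes 5 fell with a median of -0.44, where 34.1% of all genes were called lower. ATF4 is regulated mainly at translation, which these arrays do not measure.

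The wider list of ATF4 and amino acid response genes was split. At day 14, 9 of 27 tested genes were higher, 7 lower and 11 not called, which for the lower calls is no larger a share than the 34.1% of all genes, against 18.3% of all genes called higher. At day 7, 4 were higher and 0 lower, where 3.34% of all genes were called in either direction. With single arrays left out, the day 7 count was 1 when control replicate 3 or either of day 7 replicates 2 and 3 was missing and 2 when replicate 1 of control or of day 7 was, and it was 1 with the mean of probe sets. Asns, asparagine synthetase and a textbook ATF4 target, measured 102, 121 and 82.4 in control and 102, 90.9 and 107 at day 14. Its groups overlapped (change -0.01 ± 0.13, adjusted p = 0.95). Among the genes of the list that fell, Phgdh, the first enzyme of serine synthesis, measured 2768, 2893 and 2761 in control and 1665, 1814 and 1899 at day 14 (change -0.65 ± 0.07), and Psat1, the next enzyme, changed by -0.56. The glutamine carrier gene Slc1a5 changed by -0.52.

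**Figure D5:**
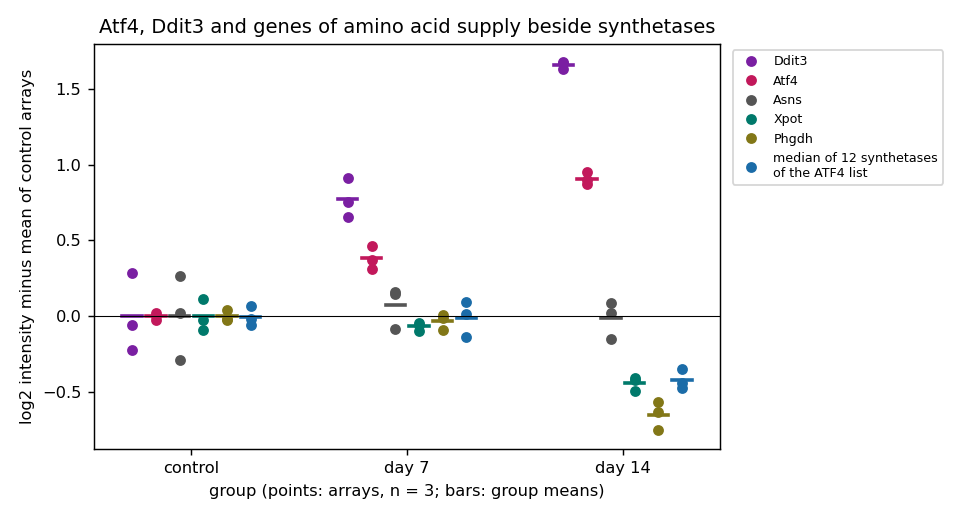
Log2 intensity minus the mean of the control arrays for Ddit3, Atf4, Asns, Xpot and Phgdh and for the median of the 12 tested synthetases often given as ATF4 targets. Points are the 3 arrays of each group and bars the group means. Ddit3 and Atf4 climb over the days to means of 1.66 and 0.91 at day 14, Asns stays around 0, and Phgdh, Xpot and the synthetase median lie near 0 at day 7 and well below it at day 14.

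Partners of the synthetases were examined in lists by role. At day 7 limma called 0 genes of the lists of scaffolds, paralogs, mitochondrial and cytosolic translation, tRNA processing, RNA polymerase III and eIF2. Of all genes, 3.34% were called at day 7 in either direction, and 34.1% were called lower at day 14 against control. Aimp1, Aimp2 and Eef1e1 encode the scaffolds of the multisynthetase complex. Aimp2 measured 383, 451 and 343 in control and 180, 210 and 223 at day 14 (change -0.94 ± 0.11, adjusted p = 0.00012). Eef1e1 changed by -0.60 and also passed, while Aimp1 did not (-0.14, adjusted p = 0.095). Among synthetase paralogs and editing factors outside the list of 35, 4 of 6 fell, led by Aarsd1, an editing factor for mischarged tRNA (-0.94), then Tarsl2 (-0.40) and Hars2 (-0.39). Mitochondria make glutaminyl-tRNA through an amidotransferase and start proteins with formylmethionine, and all 4 tested genes of these steps fell: Qrsl1, at 169, 184 and 175 in control and 70.9, 93.7 and 83.3 at day 14, changed by -1.10 ± 0.10, Gatc by -0.52, Gatb by -0.48 and Mtfmt by -0.44. The call of Gatb was lost with the mean of its probe sets (-0.06).

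Mitochondrial translation factors fell in 7 of 8 cases, led by Tsfm (-0.74) and Gfm1 (-0.60), which encode elongation factors, and by Gfm2 (-0.50). Of the mitochondrial tRNA modification genes 4 of 8 fell, a count little above the 34.1% of all genes called lower, with Trmt5 (-0.73), Mto1 (-0.68) and Pus1 (-0.48) first. Cytosolic elongation factors differed: Eef1a1 and Eef2, which carry charged tRNA to the ribosome and move it along the message, changed by 0.03 and 0.04 without passing the test. The other genes of that list that passed were Eef1d (-0.26) and Eef2k (-0.24), 2 of 5, and both calls were lost with equal 75th percentiles (-0.14 and -0.12) and with the mean of probe sets. With equal 75th percentiles the other 3 genes, Eef1a1, Eef1b2 and Eef2, were called higher, and with no filter or with a trended prior 1 gene of the list was. Of the genes of tRNA processing and export 12 of 16 fell, with a median of -0.36. Pop1 and Pop5, subunits of RNase P, changed by -1.15 and -0.92, and Tsen15, of the tRNA splicing endonuclease, by -0.89. Xpot, the tRNA exporter, measured 891, 978 and 851 in control and 643, 676 and 681 at day 14 (change -0.44 ± 0.07, adjusted p = 0.00041).

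RNA polymerase III transcribes the tRNA genes. Of 20 tested genes of the polymerase and its factors 11 fell, where 34.1% of all genes were called lower and 18.3% higher, led by Gtf3c6 (-0.93), Gtf3c5 (-0.70) and Polr3g (-0.63), and 2 rose: Maf1, the repressor of this polymerase, by 0.30 (adjusted p = 0.0065), and Gtf3c2, by 0.24 (adjusted p = 0.046), a call lost in 10 of the 18 alternatives. Of the eIF2 alpha kinases and eIF2 factors 7 of 11 fell, with a median of -0.24 against -0.06 for all genes, led by Eif2ak2 (-1.09), Eif2b4 (-0.56) and Eif2ak1 (-0.51), the last turning to 0.02 with the mean of its probe sets. Eif2ak4, the kinase that senses uncharged tRNA, changed by -0.13 (adjusted p = 0.15).

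Myc, a driver of growth genes that include synthetases, measured 1096, 1256 and 1370 in control, 967, 908 and 1065 at day 7 and 731, 661 and 769 at day 14. The day 14 arrays lay below all others (change -0.78 ± 0.10, adjusted p = 0.00014), and the day 7 change of -0.34 did not pass (adjusted p = 0.088). Of 12 tested MYC and growth genes 6 fell and 1, Odc1, rose (0.33), where 34.1% of all genes were called lower and 18.3% higher, with Srm (-0.65) and Cad (-0.63) next after Myc. Wars is a known target of interferon gamma. Of 12 tested genes of that response 8 fell at day 14, led by Irgm2 (-1.87), Iigp1 (-1.37) and Igtp (-1.28). At day 7, 4 were lower and 1 higher, where 3.34% of all genes were called in either direction. The count of 4 fell to 2 without control replicate 3 or any 1 day 7 array and to 0 with no filter. Wars changed by -0.01 at day 7 and by -0.38 at day 14, and its link to this response was not tested. Irf1, the factor upstream of that response, changed by 0.20 at day 14 (adjusted p = 0.31) and passed without control replicate 1 (0.37). The mitosis genes, higher at day 7, were all 14 lower at day 14 against control, with a median of -0.82 and summed intensities of 2846 to 3503 against 4843 to 6558 in control. Their fall moved with that of the synthetases at day 14 and their rise at day 7 did not, and the part of cell cycling in the synthetase values was not tested.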

How the data were processed

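Values are the authors' deposited normalized intensities, not logged. The design text of the series states amplification in 2 cycles and normalization with Affymetrix software version 5.0; further steps are not given in the sources used here. Gene names came from GEO's platform annotation, in which 34945 of 45037 probe sets had 1 symbol. A floor at the 20th percentile of all intensities (5.81) was set before log2, and genes above the 40th percentile of the array (14.1 to 15.2) in at least 3 arrays were tested. limma 3.58.1 in R 4.3.3 fitted 1 linear model over all 9 arrays, with Benjamini-Hochberg adjustment over 12652 genes and calls below an adjusted p of 0.05. SE are those of the fit. The number of arrays limits the precision. Only the limma fit was tested on simulated data, in which a small part of the genes changed. Those data held no scaling difference between arrays and no identical values, so they do not bear on either. The synthetase genes, related lists and cell markers were chosen with earlier results of these data known; every synthetase gene with a probe set was named, and of each list at most 3 called genes per direction with the largest day 14 change, plus Atf4, Myc, Asns, Ddit3, Xpot and Irf1; other genes named were chosen after their values were seen. Lists have counts and medians only, with no test over a list. Alternatives were 2 other scalings, no floor, no or a stricter filter, the mean of probe sets, a replicate block, only the groups compared, a trended prior and leaving out each array.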

Additional observations from a re-analysis of the deposited data

Results flagged for a closer look

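For 26 synthetase genes the change from control differed between the 2 leukemic days, by the direct limma test of day 14 against day 7 in the model over all genes. The difference is the day 14 change minus the day 7 change on the log2 scale, and a negative value means a lower intensity at day 14. Among the cytosolic enzymes it was -0.79 for Mars, -0.70 for Cars, -0.70 for Rars, -0.65 for Hars, -0.55 for Farsb, -0.50 for Eprs, -0.48 for Gars, -0.46 for Aars, -0.46 for Kars, -0.44 for Farsa, -0.39 for Sars, -0.39 for Tars, -0.38 for Lars, -0.36 for Wars, -0.33 for Yars and -0.29 for Iars. Among the mitochondrial enzymes it was -0.85 for Pars2, -0.60 for Tars2, -0.59 for Rars2, -0.47 for Nars2, -0.45 for Fars2, -0.44 for Ears2, -0.37 for Cars2, -0.36 for Yars2, -0.35 for Lars2 and -0.30 for Vars2. The 3 genes with the most negative differences were Pars2, Mars and Rars. On the deposited scale the 3 day 14 arrays lay below the 3 day 7 arrays for 28 of the 33 genes tested, the 26 included. Of all 12652 genes tested, 4882 lay apart in this way and 4251 were called lower. The 26 were selected by a test on these same arrays, so their lying apart is no separate evidence. The difference no longer passed for Yars, Vars2 and Yars2 under either other scaling and for Iars with equal 75th percentiles, nor for Eprs, Farsa, Fars2, Lars2, Vars2 and Yars2 with the mean of probe sets.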

How the results depend on the processing

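The count of synthetase genes called lower at day 14 was 21 to 26 over the alternatives against control and 21 to 28 against day 7, with 0 higher in each, and at day 7 it was 0 in each. Of the 25 genes called against control 19 were called in the same direction in every alternative, and of the 26 called against day 7, 18. Leaving out 1 array at a time gave 24 to 26 genes against control and 26 to 28 against day 7. The cytosolic median against control was -0.33 after quantile normalization and -0.30 with equal 75th percentiles, and against day 7 it was -0.36 and -0.30. The mitochondrial median was -0.22 and -0.21 against control and -0.24 and -0.23 against day 7 under these scalings, and -0.17 and -0.22 with the mean of probe sets. With that mean the change of called genes turned positive for Eprs (0.14 against control, 0.0024 against day 7), for Farsa against day 7 (0.052) and for Eif2ak1 against control (0.023), and among synthetases not called it was positive for Qars (0.034 and 0.11) and, against control, Yars2 (0.0028). The replicate numbers of the labels are not known to pair the samples. Deviations of same-numbered arrays correlated at -0.19 to 0.12, and differently numbered arrays were not compared, so these values do not settle pairing. With the replicate number as a block (replicate block) 26 genes were lower at day 14 against control, 26 against day 7 and 0 were called at day 7, the added gene being Iars2 (adjusted p = 0.036). Over all genes the block left 280 calls at day 7 in place of 423, and the stricter filter on dim probe sets called 42.4% of all genes lower at day 14. Counts of all genes called at day 7 ranged from 59 with no filter to 674 with a trended robust prior. With 3 arrays per group the SE of a change was 0.061 (Farsa) to 0.115 (Aars), and Mars2, too dim to test, gives no value.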
